A study of Homo sapiens with 108 samples.

Results

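The heat shock chaperones described here are 10 genes, HSPD1, HSPE1, HSPA8, HSPA4, HSPH1, DNAJA1, DNAJB1, HSP90AA1, HSP90AB1 and HSPB1. Their probes were those whose annotation gave 1 gene symbol that is among these names, which held for 15 probes of the 54359 on the array and for 10 genes of the 18278 named by such probes. RNA came from 6 established human melanoma cell lines, MeWo, HMV-I, HMV-II, Colo679, C32TG and 92-1 (a uveal melanoma line). Each line was sampled unirradiated (0Gy) and at 1 h and 3 h after 2 Gy of carbon ions (C-ions, which deposit energy along dense tracks) or of X-rays, and each beam had its own 0Gy cells. Every line, beam and time was measured on 3 single-colour whole-genome arrays, which gives 36 groups of 3. Both times of a beam are thus set against the same control arrays, while the beams have no control array in common. Whether separate cultures lie behind the 3 arrays of a group is not labelled, so within a line the p-values measure only the spread between arrays, which may be technical. How the cells were grown, how the 0Gy cells were handled and what energy each beam had is not given in the sources used here.

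Molecular chaperones keep other proteins folded. HSP70 proteins bind exposed stretches of unfolded proteins with the help of J-domain proteins, which deliver the clients, and of nucleotide exchange factors, which release them. HSP90 proteins finish the maturation of kinases, receptors and other signalling proteins, the HSP60 and HSP10 chaperonin folds proteins inside mitochondria, and small heat shock proteins hold damaged proteins in soluble complexes. Heat and other stresses that unfold proteins release the factor HSF1, which binds repeated GAA and TTC units (heat shock elements) before many of these genes and raises their transcription. Several of the genes are also highly transcribed in unstressed dividing cells.

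Levels are log2 intensity after quantile normalization, and a change is the mean of an irradiated group minus the mean of the 0Gy group of the same line and beam. Called means an adjusted p below 0.05 in limma over all probes of the fit. As a check of the labels, CDKN1A, the p53-induced inhibitor of cyclin-dependent kinases, was higher in 6 of 6 lines at 3 h after C-ions (1.18 ± 0.73, SD, n = 6 lines; adjusted p = 0.00476) and after X-rays (1.19 ± 0.79, adjusted p = 0.0103). Of 7 melanocyte lineage genes, 7 lay above the level cutoff of -0.40 in the controls of C32TG, Colo679, HMV-II and MeWo and 5 in 92-1. HMV-I had 3, and the lineage genes TYR, MLANA, TYRP1 and SOX10 were below the cutoff there. Of 4 leukocyte genes, 0 passed it except in Colo679, where 1 did, and of 5 keratinocyte genes 0 to 2 passed it. Of 6 fibroblast genes, 5 passed it in Colo679 and MeWo, 4 in HMV-II and 3 in each other line. Among these LUM was at 5.72 in MeWo, 4.69 in HMV-II and 3.41 in Colo679, DCN was at 2.38 in MeWo and 2.33 in Colo679, and COL3A1 was below the cutoff in all 6 lines. Their part in the results was not tested. In RNA of whole cultures, a smaller share of cells that express a gene and less of its RNA per cell cannot be told apart.

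Of the 15 probes, 13 lay above the level cutoff. One HSPD1 probe (270105) and one DNAJA1 probe (185060) were dim, with 44 and 66 values missing over all arrays, and were not tested. Each gene is given by its brightest probe, with the second probes of HSPA8, DNAJA1 and HSP90AA1 beside it. The probes of HSPA8 and HSPE1 were close to the top of the scale, at a median of 0.30 and 0.73 log2 below the brightest spot of the array and at the closest 0.013 and 0.029, so a rise had little room there. The probe of HSP90AA1 lay at a median of 1.67 and that of HSPB1 at 1.10 below it. Levels of different probes are not compared. Genes such as HSPD1, HSPE1, HSPA8 and the HSP90 genes have processed copies elsewhere in the genome, and whether a probe also reads those was not tested.

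Heat shock elements were looked for as 3 alternating units with 2 free bases between them, spelled GAANNTTCNNGAA or TTCNNGAANNTTC, each the other's reverse complement, from 250 bases before to 50 after each RefSeq gene start (GRCh38.p14). They are shown because the motif is the one HSF1 is known to bind. All 10 genes matched the table, with 16 windows, and 5 genes held the motif (HSPD1, HSPA8, DNAJA1, HSP90AA1 and HSP90AB1), while 0.608% of the 27305 genes in the table did. By window it was 5 of 16, against 0.49% of 35116. The shorter GAANNTTC, which reads the same on both strands and is contained in the longer motifs, was found in 7 of the 10 genes (DNAJB1 and HSPB1 besides) and in 8.21% of all genes. Each stretch below has 30 bases on the gene's own strand, and capitals mark the units.
HSPD1 (chr2:197500061-197500090, minus strand): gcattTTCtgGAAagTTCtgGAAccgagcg
HSPA8 (chr11:123062346-123062375, minus strand): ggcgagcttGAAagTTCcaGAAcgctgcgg
HSPA8 (chr11:123062171-123062200, minus strand): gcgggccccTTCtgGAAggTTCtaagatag
DNAJA1 (chr9:33025267-33025296, plus strand): cgccgggcgGAActTTCcaGAAcgctcggt
HSP90AA1 (chr14:102087112-102087141, minus strand): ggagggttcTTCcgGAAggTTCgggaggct
HSP90AB1 (chr6:44247769-44247798, plus strand): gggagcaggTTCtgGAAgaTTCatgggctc
HSP90AB1 (chr6:44247822-44247851, plus strand): ctgagattgTTCtgGAAgcTTCtggattct
HSPD1 had 4 units in a row, and the other stretches had 3. The units began 245 bases before the HSPD1 start, 230 and 55 before that of HSPA8, 88 before that of HSP90AA1 and 165 and 112 before that of HSP90AB1, and 3 bases after that of DNAJA1. HSPD1 and HSPE1 lie head to head on opposite strands, with starts 539 bases apart for this HSPD1 start, and the printed stretch lies between them, with 38 bases between it and the HSPE1 window. These are matches of letters in a window, and binding was not measured.

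After irradiation no chaperone gene rose across the lines by its main probe, and 4 of them, HSPD1, HSPH1, DNAJA1 and DNAJB1, fell after C-ions. The fall of DNAJA1 rests on its main probe, since the mean of its tested probes did not pass limma's test (-0.17, adjusted p = 0.0568). With the values as deposited, HSPA8 was higher at 3 h after X-rays (0.17, adjusted p = 0.0417) and 0 genes passed at 1 h after C-ions. Taking each line as 1 value, 9 genes could be tested across the 6 lines (HSPB1 had too many missing values), and each is lower or higher by the mean of its 6 changes. At 1 h after C-ions, DNAJB1 and HSPH1 fell, 2 of 9 genes where 9.62% of all probes fell, 1.27% rose and 10.9% changed either way. At 3 h after C-ions, HSPD1, DNAJA1 and HSPH1 fell, 3 of 9 where 7.88% of all probes fell, 2.60% rose and 10.5% changed. After X-rays 0 of 9 genes passed limma's adjusted p at either time, with 3 and 4 genes under an unadjusted p of 0.05 at 1 h and 3 h, while 1.14% and 5.03% of all probes were called. The mean change was below 0 in 9 of 9 genes at both times after C-ions and at 1 h after X-rays, and in 8 of 9 at 3 h after X-rays, where the median over all probes was -0.05, -0.03, -0.03 and -0.01. Since the times of a beam share their controls, these counts are not independent.

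Within the lines 59 pairs of gene and line were fitted. At 1 h after C-ions 7 pairs were lower and 0 higher, where 4.57% of all probes by line were lower and 0.840% higher. At 3 h after C-ions 14 were lower and 0 higher, against 7.46% and 4.69% of all probes. These counts moved with the scaling and the arrays: on the deposited scale 4 were lower at 1 h, and 7 lower and 2 higher at 3 h, and leaving out 1 replicate number gave 2 to 7 lower at 1 h and 8 to 9 at 3 h. The higher ones were HSPB1 in C32TG and HMV-II on the deposited scale, and with median centring HSPA8 in Colo679 and HSPB1 in Colo679 and HMV-II. After X-rays 2 were lower and 0 higher at 1 h (2.28% and 0.256% of all probes), and 3 lower and 2 higher at 3 h (4.73% and 2.66%). The X-ray counts were near those shares. By line, the genes lower at 1 h after C-ions were 4 of 9 in MeWo (12.1% of its probes were lower) and 1 of 10 each in C32TG (7.62%), HMV-I (2.16%) and HMV-II (1.49%). At 3 h after C-ions they were 4 of 9 in MeWo (13.1%), 3 of 10 in HMV-II (6.09%), 2 of 10 each in 92-1 (11.9%), HMV-I (6.19%) and Colo679 (4.61%) and 1 of 10 in C32TG (2.89%). After X-rays 2 of 10 were lower in C32TG at 1 h (11.4%), and at 3 h 2 of 10 in Colo679 (12.2%) and 1 of 9 in MeWo (0.386%) were lower and 2 of 10 in HMV-I higher (6.69%). MeWo thus had the most called genes after C-ions, and no line had more than 2 after X-rays. Of the 28 calls, 8 held in all 3 fits that left out the arrays of 1 replicate number, and 17, 12 and 16 held without the arrays numbered 1, 2 and 3, while 19 held with median centring and 15 on the deposited scale. In all 4 comparisons, 168 of 236 pairs were below 0, and the changes ran from -1.42 to 0.48 with a median of -0.09. The median over all probes of a line ran from -0.10 (MeWo, 1 h after C-ions) to 0.06 (MeWo, 3 h after X-rays). The share of all probes below 0 was not counted, so the 168 pairs are not shown to be particular to these genes.

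**Figure D1:**
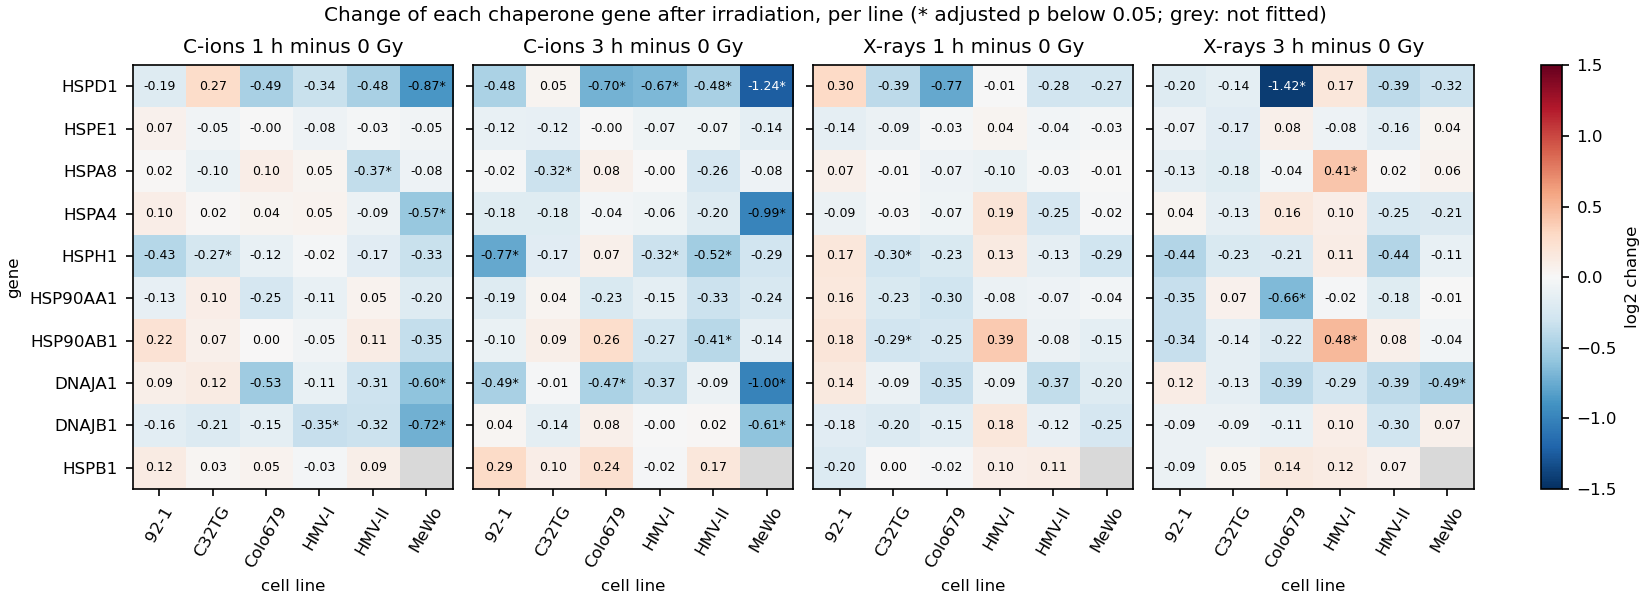
Log2 change of each chaperone gene (rows) in each melanoma line (columns) after C-ions or X-rays at 1 h and 3 h, each as the mean of the irradiated arrays minus the mean of the 0Gy arrays of the same beam; blue is lower, red is higher, a star marks an adjusted p below 0.05 and grey was not fitted. HSPD1 was below 0 in 5 of 6 lines at 3 h after C-ions, and the largest fall on the map was its -1.42 in Colo679 at 3 h after X-rays.

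HSPD1 encodes HSP60, the barrel-shaped folding chamber of the mitochondrial matrix, and its messenger had the largest mean fall of the 9 genes at 3 h after C-ions. There it was lower by 0.59 ± 0.42 (SD, n = 6 lines; adjusted p = 0.0112), in 5 of 6 lines, and the fall at 1 h was -0.35 ± 0.38 (adjusted p = 0.0513). In MeWo the 0Gy arrays of the C-ion set read 2.90, 2.90 and 2.32, those at 1 h 2.20, 1.77 and 1.55 and those at 3 h 1.71, 1.44 and 1.27. All irradiated arrays thus lay below all 0Gy arrays, and the fall of 1.24 at 3 h (SE 0.19, adjusted p = 9.35e-05) was 2.36-fold. In HMV-I the C-ion arrays read 4.77, 4.56 and 4.66 at 0Gy and 4.10, 4.09 and 3.78 at 3 h, again without overlap (-0.67, SE 0.16, adjusted p = 0.00987). Colo679 fell after each beam, from 4.03 and 3.58 (the other 0Gy value is missing) to 3.22, 3.46 and 2.63 at 3 h after C-ions (-0.70, adjusted p = 0.0294), and from 4.39, 4.31 and 4.19 to 2.69, 3.06 and 2.88 at 3 h after X-rays (-1.42, SE 0.19, adjusted p = 1.68e-04). That X-ray fall, 2.67-fold, held in every alternative tried. HMV-II fell by 0.48 at 3 h after C-ions (adjusted p = 0.0460). MeWo had also fallen at 1 h (-0.87, adjusted p = 0.00366), a call lost without the arrays numbered 2 (adjusted p = 0.143).

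C32TG was the exception among the lines, with HSPD1 at 3.68, 3.69 and 3.44 before C-ions, at 3.93, 3.88 and 3.82 at 1 h and at 3.72, 3.59 and 3.64 at 3 h. Its 1 h arrays lay above its 0Gy arrays, but neither difference passed (0.27 and 0.05). In 92-1 the 3 h value was -0.48 after C-ions without passing, and HSPD1 in HMV-I was 0.17 at 3 h after X-rays without passing. Without 92-1 the fall across the other lines was -0.61 and no longer passed (adjusted p = 0.0514), and without HMV-I and MeWo it was -0.40 (adjusted p = 0.0531). Within lines, the call at 3 h after C-ions was lost in Colo679 without the arrays numbered 2 (adjusted p = 0.225), in HMV-I without those numbered 3 (0.121) and in HMV-II without those numbered 1 (0.190) or 2 (0.388), on the deposited scale (0.0615) or with no level filter (0.0668).

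HSPE1 encodes HSP10, the lid of the same chamber, and was called by limma in 0 of 6 lines after irradiation, with 0 of 6 under an unadjusted p of 0.05 at either time and beam. Its mean change was -0.09 ± 0.05 at 3 h after C-ions (95% interval -0.19 to 0.01, adjusted p = 0.234) and -0.06 ± 0.10 at 3 h after X-rays (-0.15 to 0.03). In MeWo, where HSPD1 fell furthest after C-ions, HSPE1 read 9.08, 9.14 and 9.04 at 0Gy and 8.85, 9.05 and 8.93 at 3 h, which overlapped. The HSPE1 probe lay near the top of the scale, and the difference in response between the neighbouring genes was not tested.

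**Figure D2:**
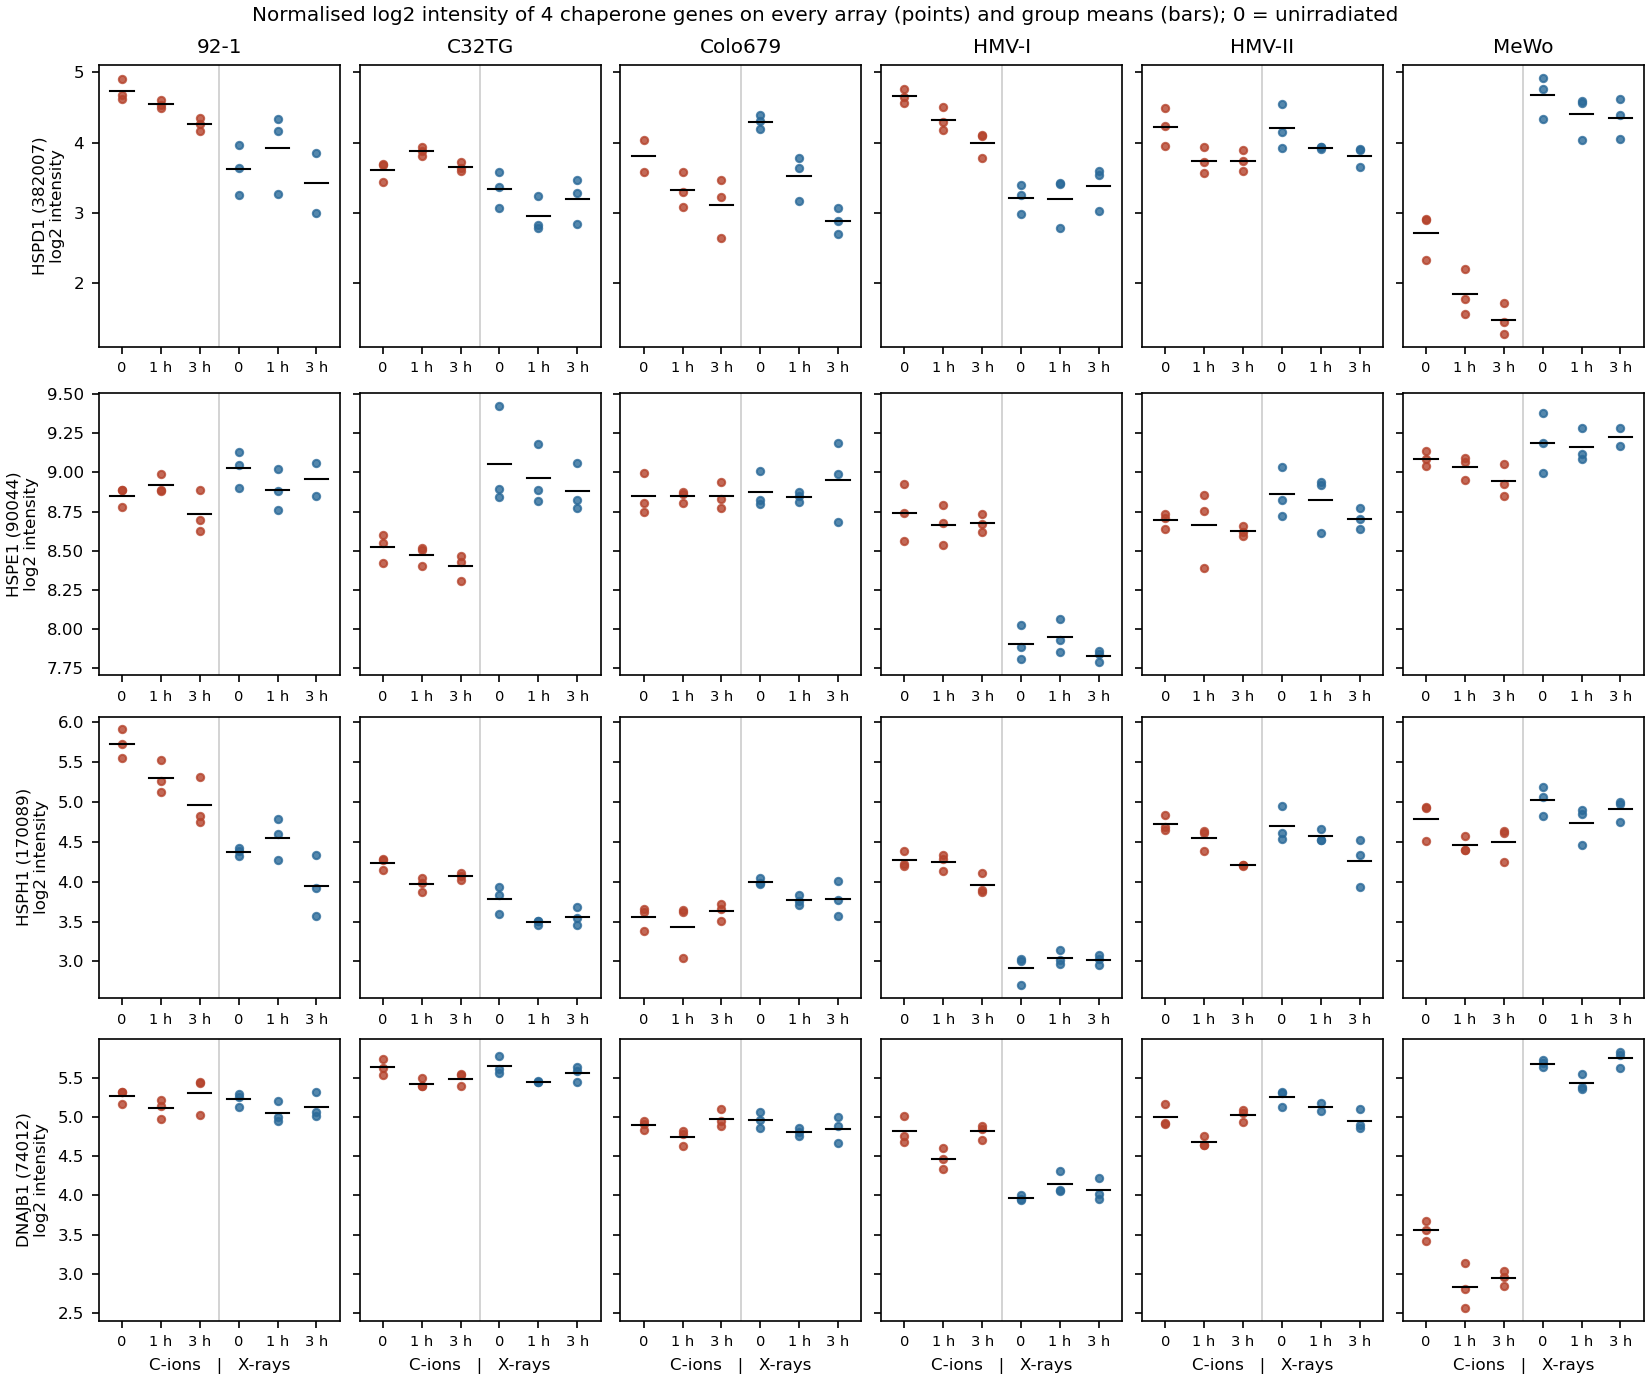
Log2 intensity of HSPD1, HSPE1, HSPH1 and DNAJB1 (rows) on every array (points) with group means (bars) in each line (columns), for 0Gy, 1 h and 3 h after C-ions (red) and X-rays (blue); the scale of the vertical axis differs between genes. In MeWo the C-ion arrays of HSPD1 and DNAJB1 lay far below the X-ray arrays already at 0Gy, and in HMV-I those of all 4 genes lay above.

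HSPA8 encodes HSC70, the HSP70 protein made in all cells, and passed in neither direction across the lines (-0.10 ± 0.16 at 3 h after C-ions, 95% interval -0.23 to 0.03, and 0.02 ± 0.21 at 3 h after X-rays, -0.12 to 0.16). It fell in HMV-II at 1 h after C-ions, from 9.18, 9.26 and 9.07 to 8.70, 8.75 and 8.95 (-0.37, adjusted p = 0.0244), and in C32TG at 3 h (-0.32, adjusted p = 0.0475). The HMV-II call was lost without the arrays numbered 1 (adjusted p = 0.317) or 2 (0.404), with median centring (0.128), on the deposited scale (0.479) and with the mean of both probes (0.0701). In HMV-I it rose at 3 h after X-rays, from 7.33, 7.21 and 7.21 to 7.66, 7.68 and 7.64, with no overlap (0.41, SE 0.07, adjusted p = 0.00104). This rise held in every alternative, and the fall in C32TG was lost in 8 of 9, being -0.07 with median centring. The second HSPA8 probe (329052) passed limma in 0 of 6 lines after either beam. In HMV-I it read 3.70, 3.75 and 3.71 before X-rays and 4.04, 3.86 and 4.08 at 3 h, also all higher.

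HSPA4 and HSPH1 encode relatives of HSP70 of the HSP110 family that act as its nucleotide exchange factors. For HSPA4 a difference between the lines did not pass the F test (adjusted p = 0.575 for the change at 3 h). That test takes a line's changes after each beam as its replicates. It therefore cannot tell whether a fall after C-ions alone is particular to a line. HSPA4 was called in 1 of 6 lines, MeWo. There the C-ion arrays read 4.61, 4.54 and 4.22 at 0Gy, 4.16, 3.79 and 3.72 at 1 h and 3.59, 3.28 and 3.52 at 3 h. The falls of 0.57 at 1 h (adjusted p = 0.00151) and 0.99 at 3 h (SE 0.11, adjusted p = 3.22e-06) had no overlap, and the second was 1.99-fold. The call at 1 h was lost without the arrays numbered 2 (adjusted p = 0.0736). After X-rays the same line read 6.74, 6.83 and 6.56 at 0Gy and 6.52, 6.38 and 6.60 at 3 h, which overlapped. In the other 5 lines the change at 3 h after C-ions lay between -0.20 and -0.04.

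HSPH1 fell at both times after C-ions, by 0.22 ± 0.15 at 1 h (adjusted p = 0.0184, 6 of 6 lines lower) and by 0.33 ± 0.29 at 3 h (adjusted p = 0.0365, 5 of 6 lines lower). In 92-1 the arrays read 5.91, 5.73 and 5.55 at 0Gy, 5.26, 5.12 and 5.52 at 1 h and 4.74, 5.31 and 4.83 at 3 h. All irradiated arrays were lower, and the fall at 3 h was 0.77 (SE 0.18, adjusted p = 0.0114), or 1.70-fold. HMV-II went from 4.83, 4.64 and 4.68 to 4.21, 4.21 and 4.19 at 3 h (-0.52, adjusted p = 0.0144), and HMV-I fell by 0.32 (adjusted p = 0.0260). C32TG fell at 1 h after each beam, by 0.27 after C-ions (adjusted p = 0.0447) and by 0.30 after X-rays (adjusted p = 0.0197), and these calls were lost in 6 and in 4 of 9 alternatives, among them all 3 that left out arrays for the first and those without number 2 or 3 for the second. The value after C-ions was -0.07 as deposited. In Colo679 the 3 h value after C-ions was 0.07. The fall across lines rested partly on 92-1: without it the values were -0.18 at 1 h (adjusted p = 0.0648) and -0.24 at 3 h (adjusted p = 0.116). The 3 h call was also lost without HMV-I (adjusted p = 0.0818), without HMV-II (0.107) or with the arrays numbered 1 left out (0.104), and this last step also ended the call at 1 h (0.270). On the deposited scale the value at 1 h was -0.14 (adjusted p = 0.0977). Within lines, the 3 h call was lost without arrays numbered 1 in 92-1 (adjusted p = 0.199), 1 or 3 in HMV-I and 2 or 3 in HMV-II, and on the deposited scale in 92-1 (0.0701) and HMV-II (0.0716).

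DNAJA1 and DNAJB1 encode J-domain proteins, which bring clients to HSP70 and stimulate its ATPase, and DNAJB1 (HSP40) is a classical heat-inducible one. DNAJB1 fell early after C-ions, by 0.32 ± 0.21 at 1 h in 6 of 6 lines (adjusted p = 0.00929), and was at -0.10 ± 0.26 at 3 h (adjusted p = 0.425). In HMV-II, for example, the arrays read 5.17, 4.92 and 4.92 at 0Gy, 4.64, 4.75 and 4.64 at 1 h and 5.09, 4.93 and 5.05 at 3 h. The 1 h arrays lay below and the 3 h arrays among those at 0Gy, and the same was seen in HMV-I, with 5.01, 4.69 and 4.75, then 4.60, 4.47 and 4.34, then 4.89, 4.85 and 4.71. The fall at 1 h in HMV-I was 0.35 (adjusted p = 0.0407) and was lost without the arrays of any 1 number, with adjusted p from 0.125 to 0.215, and under either other scaling (0.0713 and 0.0666) or with no level filter (0.0622). The difference between the times was not tested. In MeWo the arrays stayed low, at 3.67, 3.57 and 3.43, then 3.14, 2.80 and 2.57, then 2.96, 2.85 and 3.03. The falls of MeWo were 0.72 (adjusted p = 7.66e-05) and 0.61 (adjusted p = 3.17e-04), and both held in every alternative. A difference between the lines did not pass the F test (adjusted p = 0.671 for the change at 1 h and 0.831 at 3 h). That test takes a line's changes after each beam as its replicates. It therefore cannot tell whether a fall after C-ions alone is particular to MeWo. After X-rays the change was -0.12 ± 0.15 at 1 h (95% interval -0.24 to -0.0049) and -0.07 ± 0.14 at 3 h, and limma called 0 of 6 lines, with 2 and 1 under an unadjusted p of 0.05. One DNAJB1 value of HMV-II at 1 h after X-rays is missing. The call across lines at 1 h was lost only with the values as deposited (-0.23, adjusted p = 0.0610).

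DNAJA1 fell by 0.41 ± 0.35 at 3 h after C-ions, in 6 of 6 lines (adjusted p = 0.0288), with the line that changed least at -0.01. In MeWo the C-ion arrays read 4.25, 3.92 and 3.91 at 0Gy, 3.64, 3.41 and 3.23 at 1 h and 3.27 and 2.78 at 3 h, with 1 value missing. The falls were 0.60 (adjusted p = 0.00236) and 1.00 (SE 0.14, adjusted p = 3.39e-05). In 92-1 the arrays went from 7.22, 7.24 and 6.91 to 6.75, 6.58 and 6.57 at 3 h (-0.49, adjusted p = 0.0151), and Colo679 fell by 0.47 (adjusted p = 0.0419). After X-rays MeWo fell by 0.49 at 3 h (adjusted p = 0.0442), a call lost in 8 of 9 alternatives including each that left out arrays, and the mean over lines was -0.26 ± 0.22 (adjusted p = 0.0547). The DNAJA1 call across lines is the least stable, as it was lost in 9 of 16 alternatives, among them median centring (-0.29, adjusted p = 0.138), the values as deposited (-0.27, 0.157) and leaving out 92-1 (-0.39, 0.110), Colo679 (-0.40, 0.0663), HMV-I (-0.41, 0.0660) or the arrays numbered 1 (-0.41, 0.0503). Averaging both probes also ended the call across lines (-0.17, adjusted p = 0.0568, and -0.23, 0.0559, on arrays that hold both). The second DNAJA1 probe (479094) was at -0.06 ± 0.19 across lines (adjusted p = 0.598). In MeWo at 3 h after C-ions it went from 5.54, 5.62 and 5.52 to 5.39, 5.26 and 5.38, a fall of 0.22 (adjusted p = 0.0447). The mean of both probes, taken on arrays that hold both, was -0.39 at 1 h (adjusted p = 0.00396) and -0.62 at 3 h (1.07e-04) in MeWo. If the array that lacks the main probe is kept with the brighter second probe alone, which mixes the levels of the probes, both calls of MeWo end (-0.39, adjusted p = 0.196, and -0.22, 0.498). The calls in 92-1 and Colo679 were each lost without the arrays numbered 2 (adjusted p = 0.125 and 0.280), the former also without those numbered 1 (0.0899) and the latter without those numbered 3 (0.156). Median centring gave -0.32 (adjusted p = 0.132) in 92-1 and -0.26 (0.247) in Colo679, the deposited scale -0.23 (0.355) and -0.35 (0.0866), and the mean of both probes on arrays that hold both -0.27 (0.0507) and -0.23 (0.190).

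HSP90AA1 and HSP90AB1 encode the cytosolic HSP90 proteins, the first the more stress-inducible form and the second the more constant one. Neither passed across lines. HSP90AA1 was at -0.18 ± 0.12 at 3 h after C-ions (95% interval -0.30 to -0.06, adjusted p = 0.0529) and -0.19 ± 0.27 at 3 h after X-rays, and HSP90AB1 at -0.09 ± 0.24 and -0.03 ± 0.29. Within lines, HSP90AA1 fell in Colo679 at 3 h after X-rays, from 7.97, 7.93 and 7.68 to 7.03, 7.26 and 7.33 (-0.66, SE 0.15, adjusted p = 0.00623), without overlap. That call was lost without the arrays numbered 1 (adjusted p = 0.0985) or 2 (0.0568), and with the mean of both probes the fall was 0.34 (0.0274), the second probe being at -0.03. HSP90AB1 was called in 3 lines. In HMV-I it rose at 3 h after X-rays, from 6.35, 6.62 and 6.45 to 6.78, 7.15 and 6.94 (0.48, SE 0.11, adjusted p = 0.00511), and in HMV-II it fell at 3 h after C-ions, from 6.97, 6.71 and 6.96 to 6.42, 6.54 and 6.44 (-0.41, adjusted p = 0.0215). In C32TG it fell at 1 h after X-rays (-0.29, adjusted p = 0.00715). These calls were lost in HMV-I without the arrays numbered 3 (adjusted p = 0.0672), in HMV-II without those of any 1 number (0.0866 to 0.127), and in C32TG without number 2 (0.122) or 3 (0.0537). The fall in HMV-II was -0.22 with median centring (adjusted p = 0.254) and -0.19 on the deposited scale (0.441), where the C32TG call also ended (0.262). The difference between lines did not pass the F test for either gene at 1 h or 3 h. That test takes a line's changes after each beam as its replicates, so it cannot judge a change after a single beam. The second HSP90AA1 probe (318043) was called in 92-1 at 3 h after C-ions only (-0.26, adjusted p = 0.0223), where the main probe was at -0.19 without passing.

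HSPB1 encodes HSP27, a small heat shock protein that holds unfolding proteins for HSP70. Its probe lacked 11 values, among them all 3 of the C-ion 0Gy arrays of MeWo, so it was fitted in the other 5 lines and limma called it in 0 of them after irradiation, with 1 line under an unadjusted p of 0.05 at 3 h after C-ions and 0 otherwise. At 3 h after C-ions it was called higher with median centring in Colo679 (0.43, adjusted p = 0.0381) and HMV-II (0.43, 0.0438), and on the deposited scale in C32TG (0.33, 0.0434) and HMV-II (0.50, 0.0495). Over those 5 lines it was at 0.16 ± 0.12 at 3 h after C-ions (adjusted p = 0.156) and 0.06 ± 0.09 at 3 h after X-rays (adjusted p = 0.606). In 92-1 the 3 h arrays after C-ions (8.93, 8.91 and 8.96) lay above those at 0Gy (8.68, 8.77 and 8.48) without passing the test (0.29). The measured MeWo arrays read 9.01, 9.01 and 9.04 at 3 h after C-ions and 7.81, 8.04 and 8.16 at 0Gy of the X-ray set. These arrays belong to different sets, so no change after irradiation can be read from them.

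The beams were compared by the change after C-ions minus the change after X-rays. Across lines 0 of 9 genes and 0 of all probes passed limma's adjusted p at 1 h or 3 h (1 gene each under an unadjusted p of 0.05), so a different response to the beams was not shown. For HSPD1 at 3 h the difference was -0.20 ± 0.62 (95% interval -0.60 to 0.19), for HSPH1 -0.11 ± 0.26 (-0.31 to 0.09) and for DNAJB1 at 1 h -0.20 ± 0.25 (-0.37 to -0.02, adjusted p = 0.758). Within lines, 0 of 59 pairs were called at 1 h, with 11 under an unadjusted p of 0.05 (0.0119% of all probes were higher and 0.485% lower). At 3 h 4 were lower after C-ions and 0 higher, where 0.978% of all probes were lower and 0.621% higher. In MeWo 3.64% of all probes were lower and in HMV-I 1.42%. The 4 were HSPA4 (-0.78, adjusted p = 0.0119) and DNAJB1 (-0.68, adjusted p = 0.0164) in MeWo, and HSP90AB1 (-0.76, adjusted p = 0.0116) and HSPA8 (-0.41, adjusted p = 0.0348) in HMV-I. In MeWo HSPA4 was at -0.99 after C-ions and -0.21 after X-rays, and DNAJB1 at -0.61 and 0.07. In HMV-I HSP90AB1 was at -0.27 and 0.48, and HSPA8 was higher after X-rays by 0.41. The C-ion arrays of HSPA8 lie near the top of the scale there, so the size of its difference between beams is uncertain. All 4 calls were lost without the arrays numbered 2 (adjusted p = 0.0548 to 0.392) and on the deposited scale (0.0584 to 0.253), and both HMV-I calls with median centring (0.121 and 0.295). In both lines the 0Gy sets of the beams themselves differed, as described next.

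The 0Gy arrays of the C-ion set and of the X-ray set carry the same dose label. Yet in HMV-I and MeWo several of these genes differed between them by over 1 log2 unit, as did HSPH1 and HSPD1 in 92-1. Over the 59 pairs, 19 were higher and 10 lower in the C-ion set, where 17.3% of all probes by line were higher and 14.6% lower. The difference had no common direction, and across lines 0 of 9 genes and 0 of all probes passed (1 gene under an unadjusted p of 0.05).

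In HMV-I all 10 genes were higher in the C-ion 0Gy arrays and 9 were called, in a line where 46.0% of all probes differed and 22.2% were higher. HSPA8 read 9.15, 9.37 and 9.28 in the C-ion set and 7.33, 7.21 and 7.21 in the X-ray set (2.02, SE 0.07, adjusted p = 5.08e-14). The C-ion arrays lie near the top of the scale there, so the size of this gap is uncertain. HSP90AA1 read 7.21, 7.41 and 7.61 against 5.75, 5.79 and 5.81 (1.63, adjusted p = 2.32e-08), and HSPH1 4.23, 4.20 and 4.39 against 3.00, 3.04 and 2.70 (1.36, adjusted p = 5.44e-10). The sets did not overlap in any of the 9 genes, as in 26.7% of all probes with the C-ion set higher. HSPD1 was higher by 1.45, HSP90AB1 by 1.40, DNAJA1 by 1.21, DNAJB1 by 0.85, HSPE1 by 0.83 and HSPB1 by 0.39, while HSPA4 was at 0.14 without passing, though it was called at 0.26 with median centring (adjusted p = 0.0413) and 0.28 on the deposited scale (0.0317). Second probes gave 1.23 for HSPA8 and 1.00 for DNAJA1, and -0.36 for HSP90AA1 (adjusted p = 6.00e-04), opposite to its main probe, so that the mean of both HSP90AA1 probes was 0.63. The 9 calls held in every alternative. At 3 h HSPA8 read 9.28, 9.28 and 9.23 after C-ions and 7.66, 7.68 and 7.64 after X-rays.

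In MeWo 5 genes were lower and 1 higher in the C-ion set, in a line where 64.3% of all probes differed and 24.9% were lower. DNAJA1 read 4.25, 3.92 and 3.91 against 6.67, 6.66 and 6.37 (-2.54, SE 0.12, adjusted p = 1.73e-12), and HSPA4 4.61, 4.54 and 4.22 against 6.74, 6.83 and 6.56 (-2.25, adjusted p = 1.38e-12). DNAJB1 differed by -2.12 and HSPD1 by -1.97, HSP90AB1 by -0.44 and HSPA8 by 0.20. The sets overlapped in HSPE1, HSPH1 and HSP90AA1, and HSPB1 could not be compared. Over all probes the C-ion arrays lay all lower in 29.7% and all higher in 43.8%. HSPH1 was called lower with median centring (-0.42, adjusted p = 0.00687) and on the deposited scale (-0.58, 8.04e-04). The 4 genes with the widest gap also fell in this line after C-ions. Both comparisons use the same C-ion 0Gy arrays, which enter the gap with a plus sign and the change after C-ions with a minus sign. The relation between them was not tested. With median centring HSP90AB1 at 1 h (-0.35, adjusted p = 0.0380) and HSPH1 at 3 h (-0.38, 0.0406) were called lower after C-ions too. The second DNAJA1 probe went the other way, with 5.54, 5.62 and 5.52 in the C-ion set and 5.23, 5.23 and 5.18 in the X-ray set (0.35, adjusted p = 2.96e-04), so the 2 DNAJA1 probes do not give a common direction here and their mean was -1.10. The call of HSP90AB1 was lost without the arrays numbered 3 (adjusted p = 0.0597) and that of HSPA8 without those numbered 1 (0.0735).

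**Figure D3:**
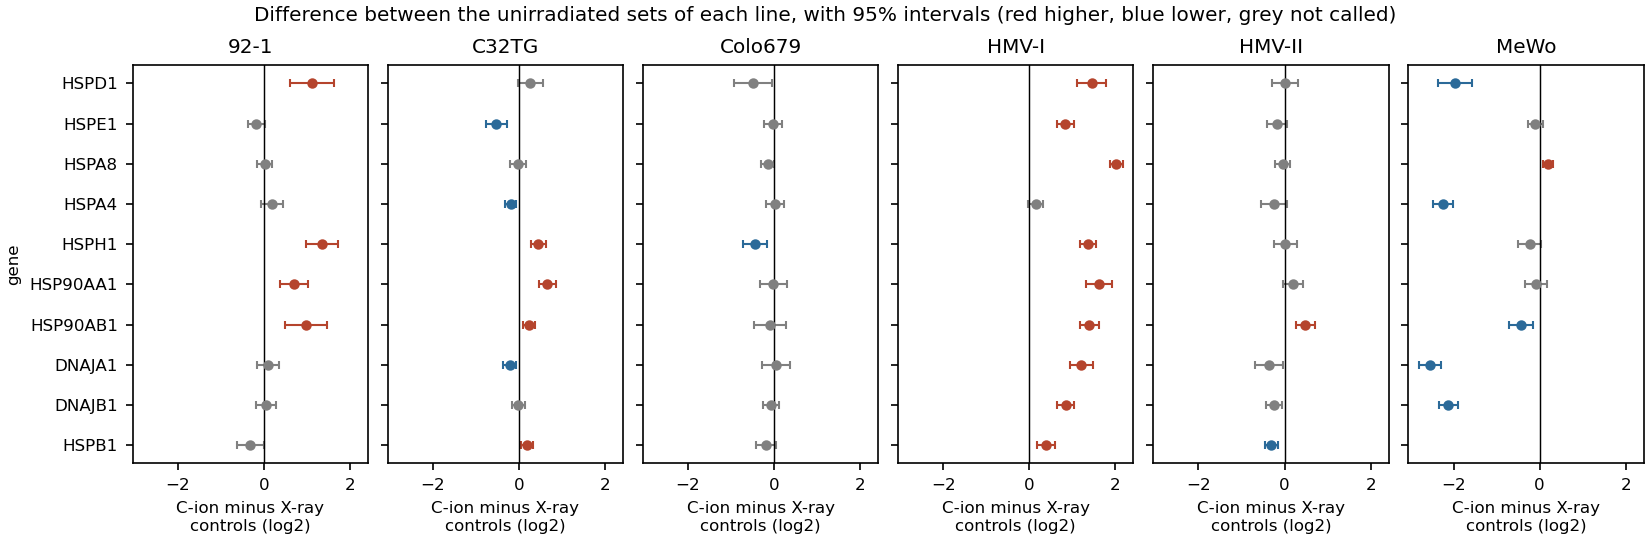
Difference of each chaperone gene between the 0Gy arrays of the C-ion set and of the X-ray set (log2, points) with its 95% interval (bars) in each line; red is higher and blue lower at an adjusted p below 0.05, grey was not called, and HSPB1 has no value in MeWo. All 10 points of HMV-I lie to the right of 0, and 4 points of MeWo lie between -2.54 and -1.97.

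In the other lines the widest gap was smaller than in HMV-I and MeWo, although some genes, such as HSPH1, differed more in 92-1 than in MeWo. In 92-1 HSPH1 (1.35, adjusted p = 1.17e-04), HSPD1 (1.12), HSP90AB1 (0.97) and HSP90AA1 (0.70) were higher in the C-ion set and 0 lower, where 14.3% of all probes differed and 9.95% were higher. On the deposited scale HSPB1 (-0.52, adjusted p = 0.0327) and HSPE1 (-0.29, 0.0493) were called lower there. HSPH1 there read 5.91, 5.73 and 5.55 against 4.33, 4.38 and 4.42. Only the HSPH1 call of these 4 held in all alternatives, as HSPD1 was lost without arrays numbered 1 (adjusted p = 0.0809) or 2 (0.0848), HSP90AB1 without number 1 (0.187) or on the deposited scale (0.0601), and HSP90AA1 without number 1 (0.122) or 3 (0.0740) or on the deposited scale (0.0552). In C32TG HSP90AA1 (0.65), HSPH1 (0.45), HSP90AB1 (0.23) and HSPB1 (0.19) were higher and HSPE1 (-0.53), DNAJA1 (-0.21) and HSPA4 (-0.19) lower, where 36.8% of all probes differed. The calls of HSP90AA1, HSPH1 and HSPE1 held in every alternative (although with the mean of both probes HSP90AA1 was at 0.29 here and at 0.37 in 92-1, the second probe overlapping between the sets in both lines), and the other 4 were lost without the arrays numbered 3 (adjusted p = 0.143 to 0.288). For HSPB1 in this line, median centring gave -0.048 and the deposited scale -0.094, and the call of HSP90AB1 ended under both (adjusted p = 0.224 and 0.423). In HMV-II HSP90AB1 was higher (0.48) and HSPB1 lower (-0.31) among 18.8% of all probes, and in Colo679 HSPH1 was lower (-0.45), where 6.36% of all probes were. These 3 calls were lost without the arrays numbered 2 (adjusted p = 0.0643 to 0.222) and without those numbered 3 (0.107 to 0.142). Averaged over 9 genes and over all conditions of a set, the C-ion set was above the X-ray set by 1.04 in HMV-I and by 0.41 in 92-1 and below it by 1.29 in MeWo.

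**Figure D4:**
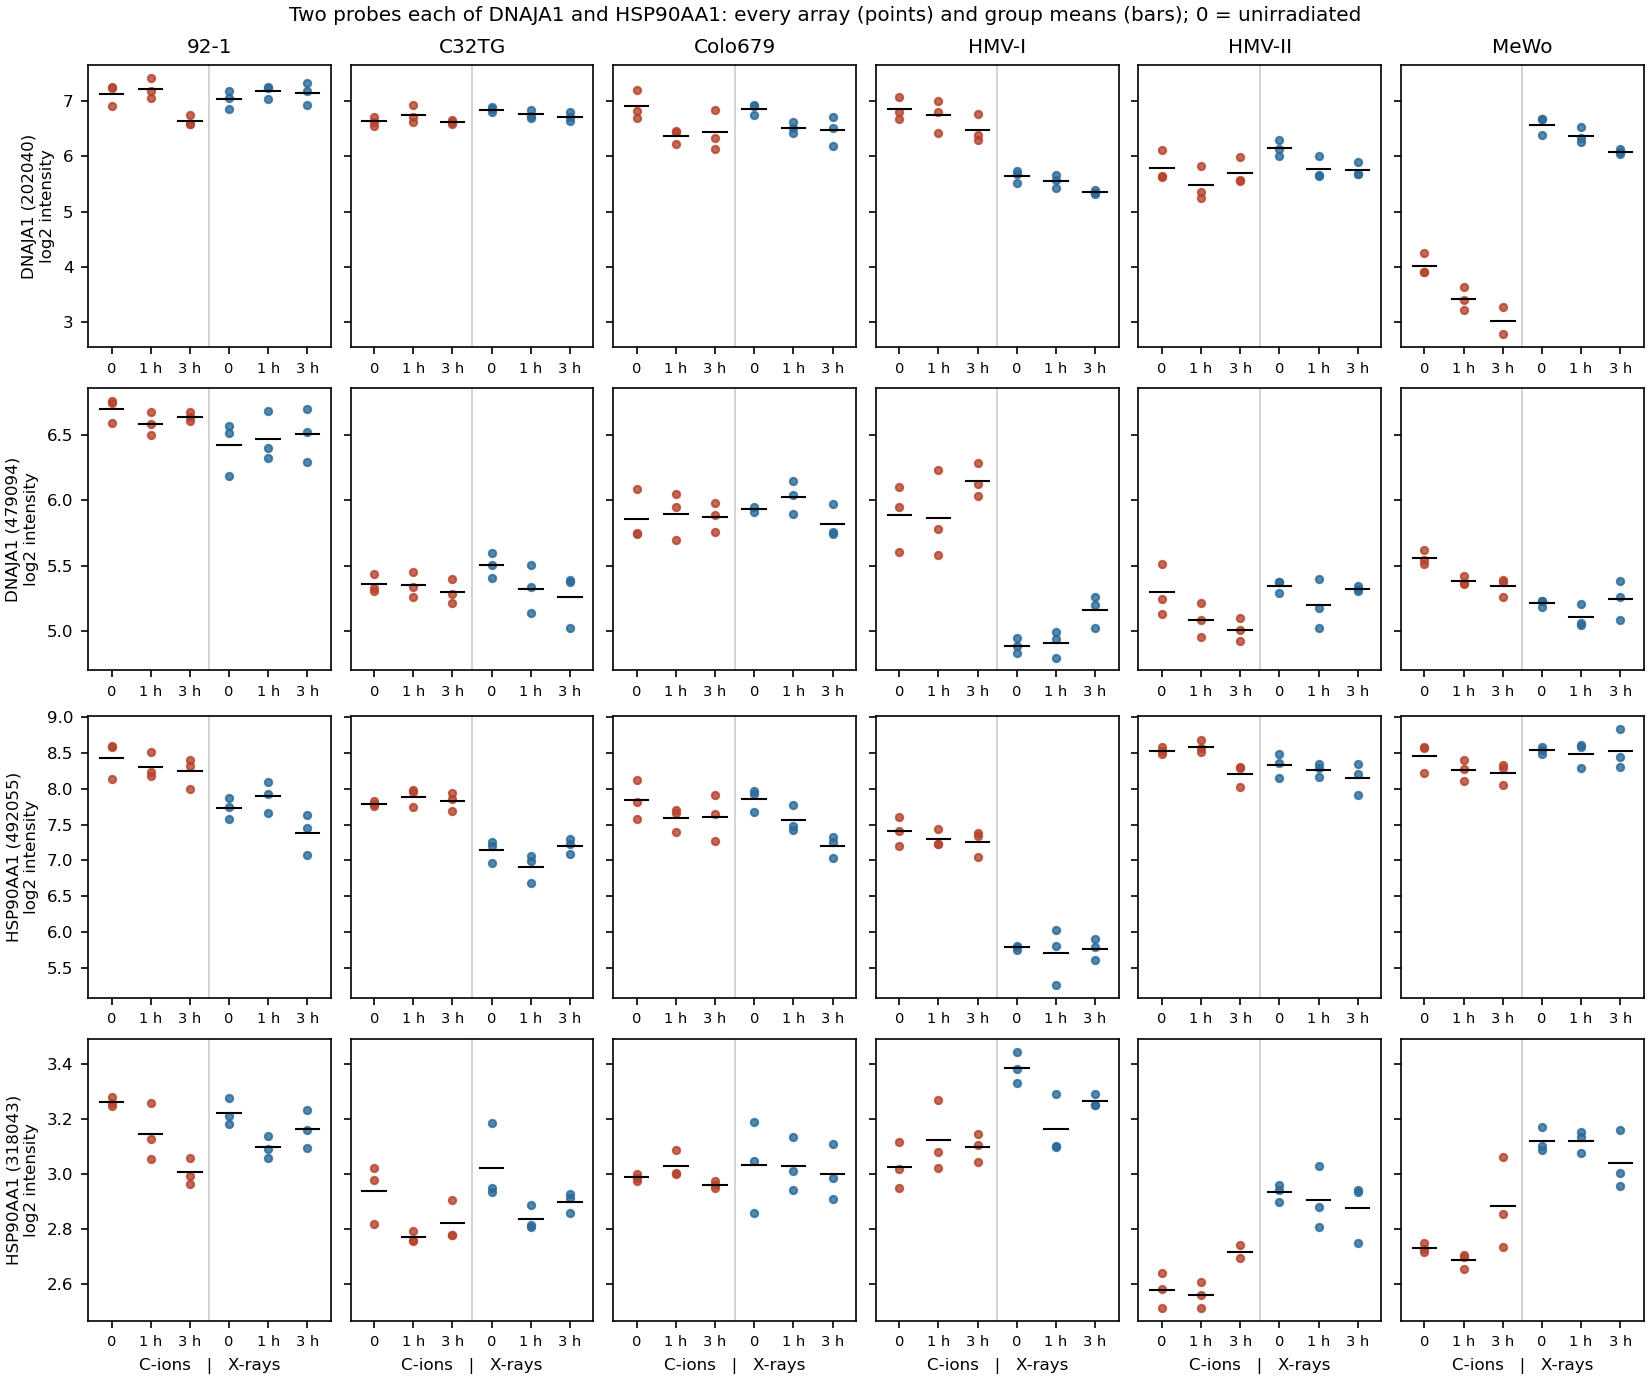
Log2 intensity of both tested probes of DNAJA1 and of HSP90AA1 (rows) on every array (points) with group means (bars) in each line (columns), C-ions in red and X-rays in blue; the vertical scales differ. In MeWo the main DNAJA1 probe (202040) read 3.91 to 4.25 on the C-ion 0Gy arrays and 6.37 to 6.67 on the X-ray ones, while the second probe (479094) read 5.52 to 5.62 and 5.18 to 5.23.

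Few genes showed an order of the lines in their control levels. In the test of line levels, which takes the beams' sets as the replicates of a line, HSP90AA1 passed (adjusted p = 0.0179) and was the only gene of 9 to do so by its main probe, where 60.2% of all probes passed. The median of its 6 control arrays was 8.55 in MeWo (range 8.22 to 8.59), 8.49 in HMV-II (8.16 to 8.58), 8.01 in 92-1 (7.58 to 8.60), 7.88 in Colo679 (7.57 to 8.13), 7.51 in C32TG (6.96 to 7.83) and 6.51 in HMV-I (5.75 to 7.61). The ranges of all 5 neighbours in that order overlapped. The second HSP90AA1 probe did not pass (adjusted p = 0.303) and gave another order, with 92-1 highest, HMV-II lowest and medians spanning 0.48. The second HSPA8 probe passed too (adjusted p = 0.00177), from 5.34 in MeWo to 3.12 in C32TG, as did the second DNAJA1 probe (0.0132), from 6.58 in 92-1 to 5.28 in HMV-I. HSPH1 was highest in 92-1 (4.99) and lowest in HMV-I (3.62) without passing (adjusted p = 0.0564). For HSPD1 the order from 92-1 (4.29) over Colo679 (4.19), HMV-II (4.19), HMV-I (3.98) and MeWo (3.62) to C32TG (3.51) had overlapping neighbours throughout (adjusted p = 0.808). DNAJB1 was highest in C32TG (5.62) and lowest in HMV-I (4.35), and HSPA4 highest in HMV-I (6.88) and lowest in MeWo (5.59), neither passing. The medians of the lines spanned 0.82 for HSPE1, 1.08 for HSPA8, 0.89 for HSP90AB1, 1.80 for DNAJA1 and 0.99 for HSPB1, and all neighbouring lines overlapped in these. In limma the change after irradiation differed between lines for 0 of 9 genes at 1 h and at 3 h (1 each under an unadjusted p of 0.05), where 0.0281% and 0.0967% of all probes did. This test takes the changes after each beam as the replicates of a line, so a change after 1 beam alone enters its error.

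The wider chaperone network was read from lists of genes, each counted across lines. HSF1 itself did not pass (0.03 ± 0.18 at 1 h and 0.17 ± 0.19 at 3 h after C-ions, adjusted p = 0.796 and 0.137). Measured with it were HSF4 and HSBP1, which encodes a binding protein of HSF1. Of these 3 genes HSF4 alone was called, lower at 1 h after C-ions (-0.19, adjusted p = 0.0281). Another list held 11 inducible chaperones and relatives of them, such as HSPA1L and HSPA2. Of its 7 measured genes, 1 fell and 0 rose at 1 h after C-ions, 1 fell and 1 rose at 3 h, and 0 changed across lines after X-rays. Over all probes 9.62% fell at 1 h after C-ions, and 7.88% fell and 2.60% rose at 3 h, so counts of 1 in such short lists are near that share. The fall at 1 h was that of BAG3, a partner of HSP70 induced by stress (-0.21 ± 0.10, adjusted p = 0.00872). HSPA1A, the main stress-induced HSP70, fell at 3 h after C-ions (-0.24 ± 0.17, adjusted p = 0.0346, 6 of 6 lines lower), with the reserve that its probe may also read the near-identical HSPA1B. Within lines after X-rays HSPA1A was higher in 92-1 at 3 h (0.53, adjusted p = 0.0372) and lower in C32TG at 1 h (-0.25, 0.0477) and 3 h (-0.34, 0.0133) and in MeWo at 3 h (-0.29, 0.0138). The gene that rose at 3 h after C-ions was HSPA1L, a relative of HSPA1A (0.26 ± 0.19, adjusted p = 0.0423). HSPA6, which is nearly silent without stress, was at 0.06 ± 0.19 at 1 h and 0.08 ± 0.14 at 3 h without passing. No probe with 1 symbol was found for HSF2 or HSPA1B.

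Across lines, 2 of 11 measured co-chaperones of HSP90 fell at 1 h and 3 at 3 h after C-ions, where 9.62% and 7.88% of all probes fell. None of the 11 rose, 9 and 8 did not pass, and after X-rays 0 passed. CHORDC1, an HSP90 partner that is itself heat-inducible, fell by 0.40 ± 0.16 at 1 h (adjusted p = 7.37e-04) and 0.35 ± 0.19 at 3 h (adjusted p = 0.00935), in 6 of 6 lines each. PPID, a cyclophilin that binds HSP90, fell by 0.16 ± 0.08 and 0.21 ± 0.07, and STIP1, which joins HSP70 to HSP90, by 0.27 ± 0.17 at 3 h (adjusted p = 0.0213). Of 13 HSP70 co-chaperones limma called 0 across lines in any of the 4 comparisons, although some were called within lines, in either direction. At 3 h after C-ions DNAJA2 was at -0.96 in MeWo (adjusted p = 2.41e-04) and DNAJA4 at 0.50 in Colo679 (0.00376). Of 8 subunits of the cytosolic chaperonin TRiC, 1 was called across lines, as CCT8 fell at 3 h after C-ions (-0.50 ± 0.43, adjusted p = 0.0261) and after X-rays (-0.25 ± 0.14, adjusted p = 0.0255). Of 4 measured prefoldin subunits, PFDN4 fell at 3 h after C-ions (-0.63 ± 0.66) and X-rays (-0.29 ± 0.21), and PFDN6 rose after X-rays (0.21 ± 0.12, adjusted p = 0.0467). At 3 h after X-rays 3.67% of all probes fell and 1.36% rose. Of 6 organelle chaperones 0 passed across lines, including HSPA5, the HSP70 of the endoplasmic reticulum (-0.23 ± 0.25 at 3 h after C-ions, adjusted p = 0.1003). Within lines HSPA5 was lower in MeWo at 3 h after C-ions (-0.55, adjusted p = 0.0194) and in HMV-II at 3 h after X-rays (-0.51, 0.0323). Calls went either way within lines, as TRAP1 was at -0.90 in Colo679 and 0.32 in HMV-I at 3 h after X-rays. Across lines the list medians at 3 h after C-ions ran from -0.09 to 0.03, where that over all probes was -0.03.

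Members of this network also differed between the 0Gy sets of HMV-I. HSPA1A was higher by 1.99 in the C-ion set (SE 0.07, adjusted p = 3.43e-14) and BAG3 by 0.31 (adjusted p = 0.00217). Of 8 measured inducible chaperones and relatives 7 were higher, of 11 HSP90 co-chaperones 6 and of 8 TRiC subunits 4, with 0 lower in these lists, where 22.2% of all probes were higher. Of 13 HSP70 co-chaperones 5 were higher and STUB1 lower (-0.49). Of 6 organelle chaperones TRAP1 was higher (0.55) and HSPA9 (-0.35) and HYOU1 (-0.21) lower, and of 4 prefoldin subunits PFDN2 was lower (-0.46). Among the 3 genes HSF1, HSF4 and HSBP1, the last was higher (0.26). HSF1 was at 0.37 there without passing. In MeWo 39.4% of all probes were higher in the C-ion set and 24.9% lower, and the lists had calls both ways. Of 8 inducible chaperones and relatives 4 were higher and 2 lower, of 11 HSP90 co-chaperones 3 and 3 and of 13 HSP70 co-chaperones 6 and 4. Of 8 TRiC subunits 5 were higher and 2 lower, of 4 prefoldin subunits 2 and 1 and of 6 organelle chaperones 2 and 2. Of the 3 genes HSF1, HSF4 and HSBP1, 3 were higher and 0 lower. The largest gaps were those of DNAJA2 (-3.18), a J-domain protein, CCT8 (-2.97), PFDN4 (-2.92) and PTGES3 (-2.38), the HSP90 partner p23. HSPA5 was lower by 1.76 and BAG3 by 0.67, HSF1 was higher by 1.15 (adjusted p = 7.47e-07), and HSPA1A was at -0.05 without passing.

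Over the 36 groups, each taken as its mean minus the mean of its line, the genes most like the average of 9 chaperones among 13648 were TARS3 (Pearson r = 0.950), PRSS23 (0.938), COPS2 (0.937), PNN (0.934) and ACTB (0.927). These groups share lines, sets and controls, and the gaps between the sets of HMV-I and MeWo weigh most in them, so the values are descriptions. Against the mean of the other members, HSPD1 had r = 0.91, DNAJA1 0.85 and DNAJB1 0.81, and HSPE1 (0.51) and HSPA8 (0.44), the probes nearest to the top of the scale, had the lowest.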

How the data were processed

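Gene expression was measured on single-colour CodeLink arrays in 6 melanoma lines. The authors deposited 1 linear intensity per probe and array, with 1000 to 8034 values missing per array. How the scanner values were scaled is not given in the sources used here. From the deposited intensity, log2 values were taken and quantile normalized. Spot brightness and 3 arrays per group limit the precision.

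Models were fitted with limma 3.58.1 in R 4.3.3 (moderated variance with a trend, Benjamini-Hochberg adjustment over all probes of a fit, threshold 0.05) and tested on simulated data. Within a line all 18 arrays and 6 groups entered 1 fit of probes whose mean lay above the 40th percentile, with at least 2 values in each group, 32118 to 32349 probes. Missing values were dropped, not imputed. The test across lines took each line's change as 1 value (32060 probes, at most 10% missing), and lines were compared by an F test with the beams' sets as replicates.

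Each gene was named through its probe with the highest mean. Other genes named are HSF1, HSPA1A, HSPA6, BAG3, HSPA5, CDKN1A and up to 2 per list, comparison and direction with the largest called change. The genes and lists were chosen with earlier results of these data known. Probes whose annotation gave several symbols were left out. For each array the deviations of its probes from their group means were taken and correlated between groups of a line. Arrays with the same replicate number gave -0.007 to 0.063 on average by line, and those with other numbers -0.032 to 0.004. In HMV-II 17 of 45 same-number pairs were over 0.1. The numbers were not used as pairs in the main fits. Alternatives were median centring, values as deposited, no level filter, the mean over a gene's probes, leaving out replicates or lines, a replicate block, and, chosen after seeing the data, no variance trend, leaving out HMV-I and MeWo together, and the probe mean on arrays that hold every probe. Heat shock elements were read from RefSeq gene starts on GRCh38.p14.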

Additional observations from a re-analysis of the deposited data

Results flagged for a closer look

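For the 9 or 10 genes, 1 line stood far from the other lines in 11 of 70 sets of line values. Chance alone marks about 1 in 20 such sets. How often the same rule marks all probes was not counted, so the 11 sets are not shown to be particular to these genes. MeWo stood apart in 7 of the 11. DNAJB1, the heat-inducible J-domain protein, was at -0.72 in MeWo at 1 h after C-ions, where the other lines lay between -0.35 and -0.15, and at -0.61 at 3 h, where they lay between -0.14 and 0.08. HSPA4, an exchange factor of HSP70, was at -0.57 in MeWo at 1 h after C-ions (other lines -0.09 to 0.10), at -0.99 at 3 h (-0.20 to -0.04) and at -0.78 in the difference between beams at 3 h (-0.22 to 0.05). Between the 0Gy sets MeWo was at -2.12 for DNAJB1 (other lines -0.25 to 0.85) and at -2.25 for HSPA4 (-0.24 to 0.18). HMV-I stood apart between the 0Gy sets for HSPA8 at 2.02 (other lines -0.15 to 0.20) and for HSPE1 at 0.83 (-0.53 to -0.03), and for DNAJB1 at 1 h after X-rays at 0.18 (-0.25 to -0.12). Colo679 stood apart for HSPD1 at 3 h after X-rays, at -1.42 (other lines -0.39 to 0.17). These sets share arrays, so they are not independent of each other.

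In 7 genes the 0Gy sets differed in opposite directions in a pair of lines, with no overlap of the arrays in either line. HMV-I and MeWo were at 1.45 and -1.97 for HSPD1, at 1.40 and -0.44 for HSP90AB1, at 1.21 and -2.54 for DNAJA1 and at 0.85 and -2.12 for DNAJB1. HMV-I and Colo679 were at 1.36 and -0.45 for HSPH1, HMV-I and C32TG at 0.83 and -0.53 for HSPE1, and HMV-I and HMV-II at 0.39 and -0.31 for HSPB1. For DNAJA1 this rests on its main probe, since the second probe was higher in the C-ion set in both HMV-I (1.00) and MeWo (0.35). Over all probes the C-ion arrays lay all higher in 26.7% in HMV-I, and all lower in 29.7% in MeWo, 21.7% in Colo679, 17.8% in C32TG and 23.8% in HMV-II. These shares are for single lines. The share of all probes with such a pair in any 2 lines was not counted, so the 7 genes are not shown to be unusual. In each of these pairs the difference was not tested.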

How the results depend on the processing

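Of the counts of called genes, 354 stayed within 1.5 times under an alternative and 44 moved. The 354 include counts that were 0 and stayed 0, so this total does not measure how stable the calls were. With median centring, 3 gene and line pairs were higher at 3 h after C-ions, 1 lower at 1 h after X-rays, 2 lower and 1 higher in the beam difference at 1 h and 3 h, and 2 genes differed in line level. With values as deposited, 4 pairs were lower at 1 h and 7 lower and 2 higher at 3 h after C-ions, 0 lower at 1 h after X-rays and 1 lower in the beam difference at 3 h; across lines 0 genes were lower at 1 h after C-ions and 1 higher at 3 h after X-rays, and 3 differed in line level. HSPB1 in the 0Gy sets of C32TG reversed to -0.048 (median centring) and -0.094 (as deposited).

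Leaving out 1 replicate number, the pairs lower numbered 2 to 7 at 1 h and 8 to 9 at 3 h after C-ions, 0 to 2 at 1 h (0 to 1 higher) and 1 to 2 at 3 h (1 to 2 higher) after X-rays, 5 to 11 between 0Gy sets and 0 to 4 in the beam difference at 3 h. Genes lower across lines numbered 1 to 3 at 1 h and 1 to 4 at 3 h after C-ions and 0 to 1 at 3 h after X-rays, and 1 to 2 differed in line level.

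Across lines, without 92-1 the genes lower after C-ions were 1 at 1 h and 0 at 3 h, with 1 lower at 3 h after X-rays and 2 differing in line level. Without C32TG 4 were lower at 1 h after C-ions, without HMV-I 1 at 3 h after C-ions and 1 at 3 h after X-rays, and without MeWo 4 differed in line level. Without HMV-I and MeWo, chosen after seeing the data, 0 were lower at 3 h after C-ions, 1 at 3 h after X-rays, and 5 differed in line level. The causes were not tested. With the replicate number as a block, 1 pair was lower in the beam difference at 1 h and 7 at 3 h; all 28 calls after irradiation, 29 between 0Gy sets and 4 in the beam difference were kept. Between the 0Gy sets of MeWo the median over all probes was 0.12 with quantile normalization, 0.04 with median centring and -0.12 as deposited.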
